A study of Mus musculus with 23 samples.

Results

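The nuclear genes of mitochondrial complex I were followed in the brains of *Bhlhe40* KO and WT mice. Members were all array symbols made of Ndufa, Ndufb, Ndufc, Ndufs or Ndufv and a number that had a probe detected at p under 0.05 in at least 3 arrays of a tissue. Of 33 such symbols 32 qualified, among 10336 gene symbols detected in a tissue and 16593 on the array. *Ndufs1*, a core subunit, was the symbol just outside: its probe was detected in 0 of 23 arrays, with a signal of 118.2 to 187.5, and it was not analysed further. The 32 members were detected in every array. Other subunits, among them those encoded by mitochondrial DNA, were not analysed here.

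Complex I, the NADH:ubiquinone oxidoreductase, is the entry point of the respiratory chain. Its matrix arm takes electrons from NADH and passes them over a flavin and a row of iron-sulfur clusters to ubiquinone, and its membrane arm pumps protons in step with this. Conserved core subunits carry out the chemistry, and a larger number of accessory subunits surround them and are needed to assemble or stabilise the enzyme. Neurons draw most of their ATP from this chain.

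The arrays came from male C57BL/6 mice aged 3 to 5 months, naive to other procedures and fasted overnight. The KO groups were *Bhlhe40* KO hippocampus (4 arrays), cortex (4 arrays) and cerebellum (4 arrays), and their controls were WT hippocampus (4 arrays), cortex (4 arrays) and cerebellum (3 arrays). The animal codes of the labels tied the 23 arrays to 8 mice, 4 KO and 4 WT, each giving all tissues except WT mouse 2, whose cerebellum was not analysed here. The codes of the KO mice and of the WT mice were separate runs of consecutive numbers. A difference that goes with these runs cannot be told apart from genotype. The KO mice lack *Bhlhe40*, a basic helix-loop-helix repressor, in all cells, and the line had been backcrossed to C57BL/6. *Ndufa4*, *Ndufa5*, *Ndufa9* and *Ndufb2* lie on chromosome 6, as *Bhlhe40* does.

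Levels are log2 bead signals, Z normalized within each array and put back on the log2 scale. Differences are KO minus WT on that scale, and a transcript was counted as changed where limma's p, adjusted for every gene tested, was under 0.05. The *Bhlhe40* probe matched the labels, with signals of 210.3 to 485.8 over the KO arrays and 2634 to 4633 over the WT arrays. Arrays had median signals of 164.4 to 267.9 and detected 50.9 to 55.5% of probes. In dissected tissue, a change in the share of a cell type and a change in RNA per cell cannot be told apart.

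In KO hippocampus, complex I transcripts were higher as a group. Of the 32 members, 20 rose, 0 fell and 12 did not pass, and 31 of 32 differences were above 0. Among all 9834 genes tested, 7.19% were higher and 4.59% lower. The members' median difference was 0.34, a 1.26-fold higher level, with a range of -0.09 to 0.49, and the median of all genes was 0.01. Every KO array lay above every WT array for 20 members, against 9.25% of all genes. Only 4.94% of all genes had a difference above the members' median, and 0 members exceeded 1.5-fold.

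**Figure D1:**
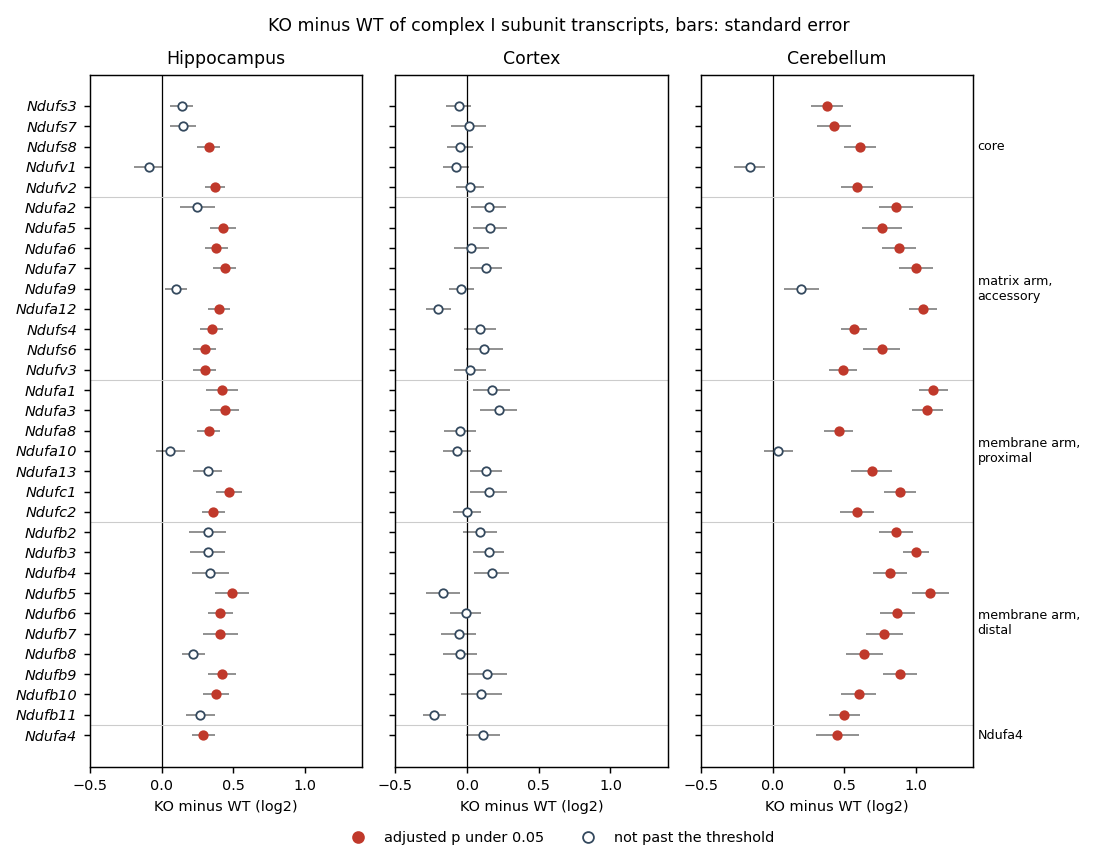
KO minus WT difference on the log2 scale (horizontal axis) of the 32 subunit transcripts (rows, ordered by their place in the complex), with 1 panel per tissue, standard errors as bars and members past the threshold as filled points. Filled points number 20 in hippocampus, 0 in cortex and 29 in cerebellum. *Ndufv1*, *Ndufa9* and *Ndufa10* have open points in all panels.

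The 5 members with the largest hippocampal differences past the threshold were accessory subunits of both arms. *Ndufb5*, a subunit of the distal membrane arm, had levels of 10.9, 10.69, 11.12 and 11.35 in KO arrays, against 10.81, 10.47, 10.35 and 10.46 in WT arrays. One KO array lay below the highest WT array, so the groups overlapped. The difference of *Ndufb5* was 0.49 (SE 0.12; limma, adjusted p = 0.018). *Ndufc1*, a small membrane-arm subunit, had 12.1, 11.97, 12.43 and 12.22 in KO arrays and 11.82, 11.56, 11.74 and 11.72 in WT arrays, without overlap. Its difference was 0.47 (SE 0.09; limma, adjusted p = 0.00868).

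*Ndufa7*, an accessory subunit of the matrix arm, had levels of 11.65, 11.51, 11.9 and 11.74 in KO hippocampus and 11.29, 11.25, 11.25 and 11.24 in WT hippocampus. The WT arrays were nearly equal and the KO arrays all lay above them, with a difference of 0.44 (SE 0.08; limma, adjusted p = 0.00739). *Ndufa3*, in the proximal membrane arm next to the matrix arm, had 11.68, 11.52, 12.12 and 11.82 in KO arrays and 11.32, 11.35, 11.45 and 11.28 in WT arrays. The groups did not overlap, and the difference was 0.44 (SE 0.1; limma, adjusted p = 0.0138). *Ndufa5*, an accessory subunit near the quinone end of the matrix arm, had 12.33, 12.22, 12.72 and 12.43 in KO arrays and 11.97, 11.98, 12.01 and 12.05 in WT arrays. All KO arrays were higher, by 0.43 (SE 0.09; limma, adjusted p = 0.0104).

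Of 5 core subunits measured, 2 rose in KO hippocampus. *Ndufv2*, which holds an iron-sulfur cluster beside the flavin, had levels of 12.86, 12.72, 12.79 and 12.82 in KO arrays and 12.42, 12.5, 12.4 and 12.39 in WT arrays. Both groups were tight and did not overlap, and the difference was 0.37 (SE 0.07; limma, adjusted p = 0.00825). *Ndufs8*, a carrier of iron-sulfur clusters in the quinone module, had 11.89, 11.87, 12.18 and 11.94 in KO arrays and 11.7, 11.62, 11.63 and 11.62 in WT arrays, a difference of 0.33 (SE 0.08; limma, adjusted p = 0.0143) without overlap.

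The other core subunits did not pass. *Ndufs7*, which holds the last iron-sulfur cluster before ubiquinone, had 12.27, 12.17, 12.6 and 12.36 in KO hippocampus and 12.27, 12.08, 12.21 and 12.23 in WT hippocampus (difference 0.15, SE 0.09; limma, adjusted p = 0.266). *Ndufs3*, a core subunit of the quinone module, had 12.47, 12.44, 12.66 and 12.57 in KO arrays and 12.39, 12.5, 12.41 and 12.25 in WT arrays (difference 0.14, SE 0.08; limma, adjusted p = 0.239). *Ndufv1*, which binds NADH and the flavin, was the one member with a difference below 0. It had 13.3, 13.41, 13.36 and 13.02 in KO arrays and 13.29, 13.16, 13.43 and 13.56 in WT arrays, which overlapped (difference -0.09, SE 0.1; limma, adjusted p = 0.595).

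By place in the complex, 7 of 9 accessory subunits of the matrix arm rose in KO hippocampus (median difference 0.35), as did 5 of 7 in the proximal membrane arm (median 0.36) and 5 of 10 in the distal membrane arm (median 0.36). *Ndufa4*, named with complex I but now assigned to cytochrome c oxidase, rose by 0.29. The members that did not pass ranged from -0.09 to 0.34, among them *Ndufb4* with 0.34, *Ndufa9* with 0.1 and *Ndufa10* with 0.06. The count depended on single arrays: 12 members were higher without KO replicate 3, with a median of 0.29, and 10 without WT replicate 4, with a median of 0.33. It was 0 in a test without moderation of the variance, with the same median.

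Choroid plexus markers were also higher in KO hippocampus. Of 14 listed markers 10 had a named probe, and 9 of these 10 were higher in KO hippocampus with a median difference of 1.38. Their normalized levels, put back on the linear scale and summed, were 28000 to 58800 over KO arrays and 2900 to 48800 over WT arrays. *Ttr* had the highest mean level of these markers, 15.07 in KO arrays and 12.56 in WT arrays. The mean marker level was 10.06, 9.92, 11.04 and 9.33 in KO replicates 1 to 4, against 8.78, 7.92, 9.82 and 8.1 in WT replicates 1 to 4. The mean deviation of complex I transcripts from the WT mean was 0.23, 0.18, 0.52 and 0.34 in the same KO arrays, against 0.04, -0.02, 0.02 and -0.04 in the WT arrays. KO replicate 3 was highest in both. KO replicate 4 came next in the complex I mean and was the lowest KO array in the markers. The groups overlapped in the markers but not in the complex I mean. With the marker level as a covariate, 30 of 32 differences stayed above 0 with a median of 0.23, and 0 passed. All KO arrays but replicate 4 lay above every WT array in marker level, so this fit cannot well tell marker level and genotype apart. The part of choroid plexus content in the complex I result was not tested.

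**Figure D2:**
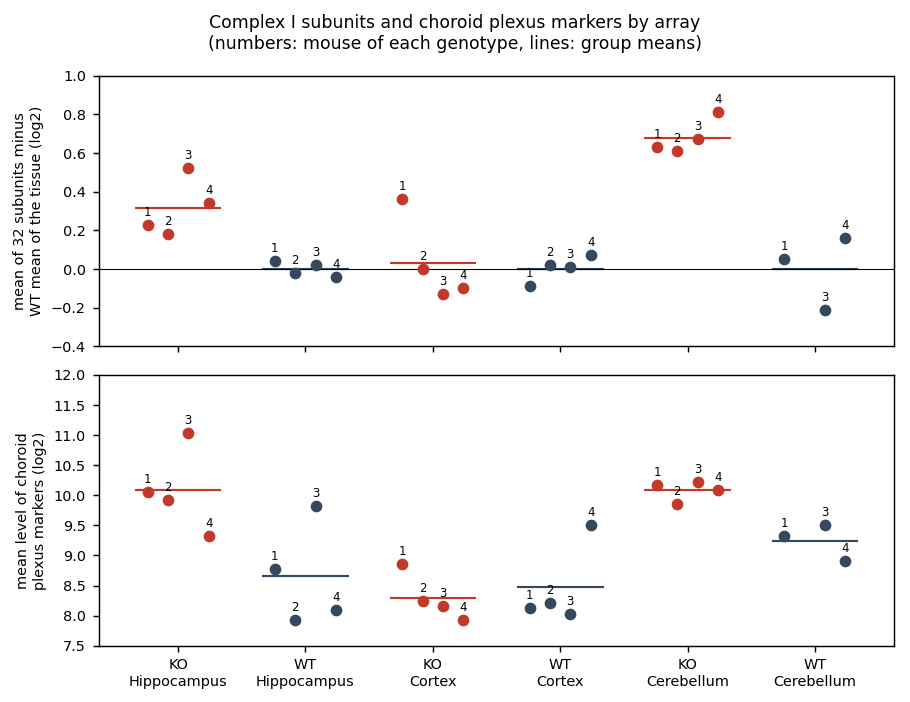
Mean of the 32 subunits minus the WT mean of the tissue (upper panel, log2) and mean level of the choroid plexus markers (lower panel, log2) for each array, KO left of WT, with the mouse number beside each point and group means as lines. KO hippocampus lies at 0.18 to 0.52 and KO cerebellum at 0.61 to 0.81 in the upper panel, and KO mouse 1 stands at 0.36 in cortex. The lower panel averages 10 markers in hippocampus and cerebellum but 4 in cortex, so cortical heights cannot be compared with the other tissues.

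In KO cortex, 0 of 32 members rose and 0 fell, against 0.113% and 0.0926% of 9720 genes tested. Differences were above 0 for 19 members, with a median of 0.03 and a range of -0.23 to 0.22, and the median of all genes was 0. At an unadjusted p under 0.05 in limma, 2 of 32 members were called, both lower, which is near the share that this threshold gives by chance. Every KO array lay above every WT array for 0 members and for 1.75% of all genes. The standard errors of the members' differences were 0.08 to 0.14.

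*Ndufb11*, an X-linked subunit of the distal membrane arm, had cortical levels of 7.75, 7.63, 8 and 7.79 in KO arrays and 8.01, 8.01, 8.16 and 7.91 in WT arrays. The groups overlapped (difference -0.23, SE 0.08; limma, adjusted p = 0.408). *Ndufa12*, a matrix-arm subunit that takes the place of an assembly factor late in assembly, had 11.67, 11.31, 11.36 and 11.28 in KO cortex and 11.59, 11.66, 11.57 and 11.58 in WT cortex. KO replicate 1 was the highest of all and the other KO arrays were below every WT array (difference -0.2, SE 0.09; limma, adjusted p = 0.538).

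*Ndufa3* had 12.18, 11.73, 11.3 and 11.46 in KO cortex and 11.33, 11.4, 11.47 and 11.6 in WT cortex, with a difference of 0.22 (SE 0.13; limma, adjusted p = 0.648). *Ndufb5* had 10.48, 10.2, 10.11 and 10.39 in KO cortex and 10.09, 10.53, 10.59 and 10.64 in WT cortex, with a difference of -0.17 (SE 0.12; limma, adjusted p = 0.7). The groups overlapped in both. *Ndufb4*, another distal membrane-arm subunit, had 8.89, 8.47, 8.43 and 8.83 in KO cortex and 8.31, 8.45, 8.41 and 8.78 in WT cortex, also with overlap (difference 0.17, SE 0.12; limma, adjusted p = 0.705).

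One KO mouse stood apart in cortex. The mean deviation of the members was 0.36 in KO replicate 1, with 30 of 32 members above the WT mean, and 0, -0.13 and -0.1 in the other KO arrays. The WT arrays lay at -0.09, 0.02, 0.01 and 0.07. Without KO replicate 1 the median difference was -0.05, and still 0 members passed. In cortex 4 choroid plexus markers were tested and 0 passed. Their summed linear-scale levels were 1090 to 4730 over KO arrays and 1190 to 11200 over WT arrays.

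In KO cerebellum the complex I transcripts were higher by more. Of 32 members, 29 rose and 0 fell, in a tissue where 20.2% of 9449 genes tested were higher and 16.6% lower. The median difference was 0.72, a 1.65-fold higher level, with a range of -0.16 to 1.12, against a median of 0.01 over all genes. Every KO array lay above every WT array for 28 members and for 21.7% of all genes. Of the members, 22 exceeded 1.5-fold, and 3.21% of all genes had a difference above the members' median.

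*Ndufa1*, a small X-linked subunit of the proximal membrane arm that is required for assembly, had cerebellar levels of 13.18, 13.04, 13.17 and 13.2 in KO arrays and 12.06, 11.87 and 12.14 in WT arrays. Groups lay far apart, with a difference of 1.12 (2.18-fold, SE 0.1; limma, adjusted p = 4.62e-07). *Ndufb5* had 11.12, 11.1, 10.79 and 11.36 in KO arrays and 10.13, 9.7 and 10.17 in WT arrays, also without overlap (difference 1.1, SE 0.13; limma, adjusted p = 4.63e-06). *Ndufa3* had 12.53, 12.48, 12.62 and 12.6 in KO arrays and 11.54, 11.15 and 11.73 in WT arrays, where WT replicate 2 was lowest (difference 1.08, SE 0.11; limma, adjusted p = 1.77e-06).

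*Ndufa12* had 12.45, 12.54, 12.41 and 12.55 in KO cerebellum and 11.59, 11.19 and 11.55 in WT cerebellum. Its KO arrays were tight and all higher, by 1.05 (SE 0.1; limma, adjusted p = 9.27e-07). *Ndufb3*, a distal membrane-arm subunit, had 11.77, 11.8, 11.87 and 11.98 in KO arrays and 10.86, 10.7 and 11 in WT arrays, a difference of 1, which is 2-fold (SE 0.09; limma, adjusted p = 7.19e-07) without overlap.

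The same 3 members that were nearest to 0 in hippocampus did not pass in cerebellum. *Ndufv1* had 13.13, 13.14, 13.23 and 13.34 in KO cerebellum and 13.36, 13.31 and 13.45 in WT cerebellum. The lower 3 KO arrays lay below every WT array, and the difference was -0.16 (SE 0.11; limma, adjusted p = 0.248). *Ndufa10*, a membrane-arm subunit with a nucleoside kinase fold, averaged 12.31 ± 0.15 in KO arrays and 12.27 ± 0.09 in WT arrays (SD, n = 4 and 3; difference 0.04, SE 0.1). *Ndufa9*, an accessory subunit beside the quinone site, averaged 12.9 ± 0.21 in KO arrays and 12.7 ± 0.11 in WT arrays (SD, n = 4 and 3; difference 0.2, SE 0.12).

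**Figure D3:**
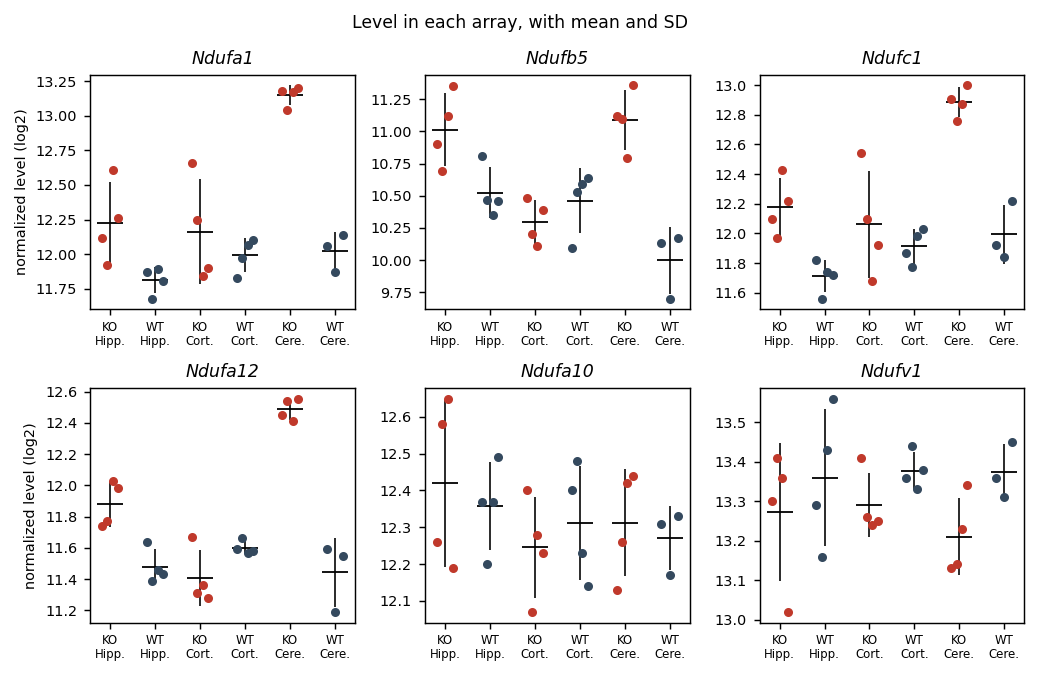
Normalized log2 level in each array (points) with group mean and SD (bars) of *Ndufa1*, *Ndufb5*, *Ndufc1*, *Ndufa12*, *Ndufa10* and *Ndufv1*, KO left of WT in each tissue; each panel has its own vertical axis, which does not start at 0. The KO cerebellum points of *Ndufa1* lie at 13.04 to 13.2, against 11.87 to 12.14 in WT cerebellum, while KO and WT points of *Ndufa10* overlap in all tissues.

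In cerebellum, 4 of 5 core subunits rose (median of the 5 differences 0.43), as did 8 of 9 matrix-arm accessory subunits (0.76), 6 of 7 in the proximal membrane arm (0.69), 10 of 10 in the distal membrane arm (0.84) and *Ndufa4* with 0.45. Choroid plexus markers were again higher, 9 of 10 with a median difference of 0.84. Their summed linear-scale levels were 37600 to 58100 in KO arrays against 19700 to 32600 in WT arrays. With their level as a covariate, 31 of 32 differences stayed above 0, the median was 1.05 and 16 members passed. The mean marker level was 9.85 to 10.22 in KO arrays and 8.9 to 9.5 in WT arrays. Without overlap between the groups, this fit cannot well tell marker level and genotype apart. Leaving out single arrays gave 26 to 29 members higher.

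The tissues were then compared by the difference between their KO effects, in one fit over 23 arrays and 8954 genes with the mouse as a random block. The KO effect was smaller in cortex than in cerebellum for 27 members and larger for 0, where 18.4% of genes were smaller and 15.2% larger, with a median difference of -0.66 for the members and -0.03 for all genes. The most different were *Ndufb5* with -1.26 (SE 0.2; limma, adjusted p = 6.36e-05), *Ndufa12* with -1.24 (SE 0.14; adjusted p = 2.12e-06), *Ndufa1* with -0.95, *Ndufb6* with -0.88 and *Ndufa7* with -0.87. *Ndufb6*, in the distal membrane arm, had 12.68, 12.29, 12.13 and 12.05 in KO cortex and 12.2, 12.34, 12.23 and 12.41 in WT cortex, which overlapped. In cerebellum its levels were 12.9, 13, 12.87 and 13.23 in KO arrays and 12.22, 11.82 and 12.35 in WT arrays, which did not.

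Between hippocampus and cortex, the KO effect was larger in hippocampus for *Ndufa12* by 0.59 (SE 0.13; limma, adjusted p = 0.0217) and *Ndufb11* by 0.5 (SE 0.14; limma, adjusted p = 0.042), and smaller for 0 members, against 1.89% larger and 1.7% smaller over all genes. *Ndufa12* had 11.74, 11.77, 12.03 and 11.98 in KO hippocampus and 11.64, 11.39, 11.46 and 11.43 in WT hippocampus, without overlap. *Ndufb11* had 8.25, 8.34, 8.32 and 8.1 in KO hippocampus and 7.83, 8.21, 8.07 and 7.81 in WT hippocampus, with overlap. The median over members was 0.27 and 31 of 32 values were above 0. Leaving out single mice gave 0 to 13 members: 13 without KO mouse 1, the mouse that stood apart in cortex, 0 without KO mouse 2, 3 or 4 or WT mouse 2 or 4, and 1 without WT mouse 3.

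Between hippocampus and cerebellum, the KO effect was smaller in hippocampus for 3 members and larger for 0, against 1.09% smaller and 0.659% larger over all genes. The 3 were *Ndufa1* with -0.7 (SE 0.19; limma, adjusted p = 0.0459), *Ndufb3* with -0.68 (SE 0.17; limma, adjusted p = 0.0334) and *Ndufa12* with -0.65 (SE 0.14; limma, adjusted p = 0.017). *Ndufa1* had 12.12, 11.92, 12.61 and 12.26 in KO hippocampus and 11.87, 11.68, 11.89 and 11.81 in WT hippocampus, and *Ndufb3* had 11.07, 10.96, 11.61 and 11.45 in KO hippocampus and 11.04, 11.1, 10.83 and 10.84 in WT hippocampus. KO arrays of *Ndufa1* were all higher, and those of *Ndufb3* overlapped WT. The median over members was -0.37. The count was 0 without KO mouse 2 or WT mouse 3, 1 without KO mouse 1 or 4 or WT mouse 1 or 2, 6 without KO mouse 3 and 2 without WT mouse 4.

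In WT mice the members' levels differed little between forebrain regions. Between hippocampus and cortex, 0 members passed in either direction, where 12.7% of genes were higher and 11.6% lower in hippocampus. The median difference was -0.05 with a range of -0.32 to 0.21. *Ndufs6*, a zinc-binding matrix-arm subunit, had 11.9, 11.87, 11.98 and 11.9 in WT hippocampus and 12.08, 12.14, 12.31 and 12.39 in WT cortex. The hippocampal arrays were all lower (difference -0.32, SE 0.13; limma, adjusted p = 0.0694). *Ndufa4* had 13.32, 13.38, 13.41 and 13.29 in WT hippocampus and 13.63, 13.42, 13.67 and 13.69 in WT cortex (difference -0.26, SE 0.12; limma, adjusted p = 0.138).

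Some members differed between WT cerebellum and the forebrain regions, a smaller share than among all genes. Relative to WT hippocampus, 7 of 32 members were higher and 3 lower in WT cerebellum, against 28.1% and 25.7% of genes, with a median difference of 0.12. Relative to WT cortex, 5 of 32 were higher and 2 lower, against 27.4% and 23.8% of genes, with a median of 0.03. *Ndufb9*, a distal membrane-arm subunit of the LYR family that binds acyl carrier protein, was lowest in cerebellum, with 9.99, 9.6 and 10.1 in WT cerebellum, 10.74, 10.51, 10.72 and 10.65 in WT hippocampus and 10.26, 10.6, 10.42 and 10.49 in WT cortex. No cerebellar array reached a forebrain one. Cerebellum minus hippocampus was -0.76 (SE 0.15; limma, adjusted p = 5.06e-05) and cerebellum minus cortex -0.55 (SE 0.15; limma, adjusted p = 0.00208), while hippocampus minus cortex was 0.21 (limma, adjusted p = 0.279).

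*Ndufv3*, a small subunit at the NADH-oxidizing tip, ran the other way, with 11.96, 11.78 and 12.03 in WT cerebellum, 11.3, 11.4, 11.44 and 11.22 in WT hippocampus and 11.4, 11.43, 11.59 and 11.61 in WT cortex. All cerebellar arrays were higher, by 0.59 over hippocampus (SE 0.11; limma, adjusted p = 5.38e-05) and 0.41 over cortex (SE 0.11; limma, adjusted p = 0.00269). *Ndufa4* was higher in cerebellum, with 13.76, 13.67 and 14.2, than in hippocampus by 0.53 (SE 0.13; limma, adjusted p = 0.00126). *Ndufb5* was lower in WT cerebellum, with a difference of -0.52 to WT hippocampus (SE 0.15; limma, adjusted p = 0.00347) and of -0.46 to WT cortex (SE 0.15; limma, adjusted p = 0.00949). Without WT mouse 4 the counts were 4 and 3 members over both directions, against 10 and 7 with all mice.

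**Figure D4:**
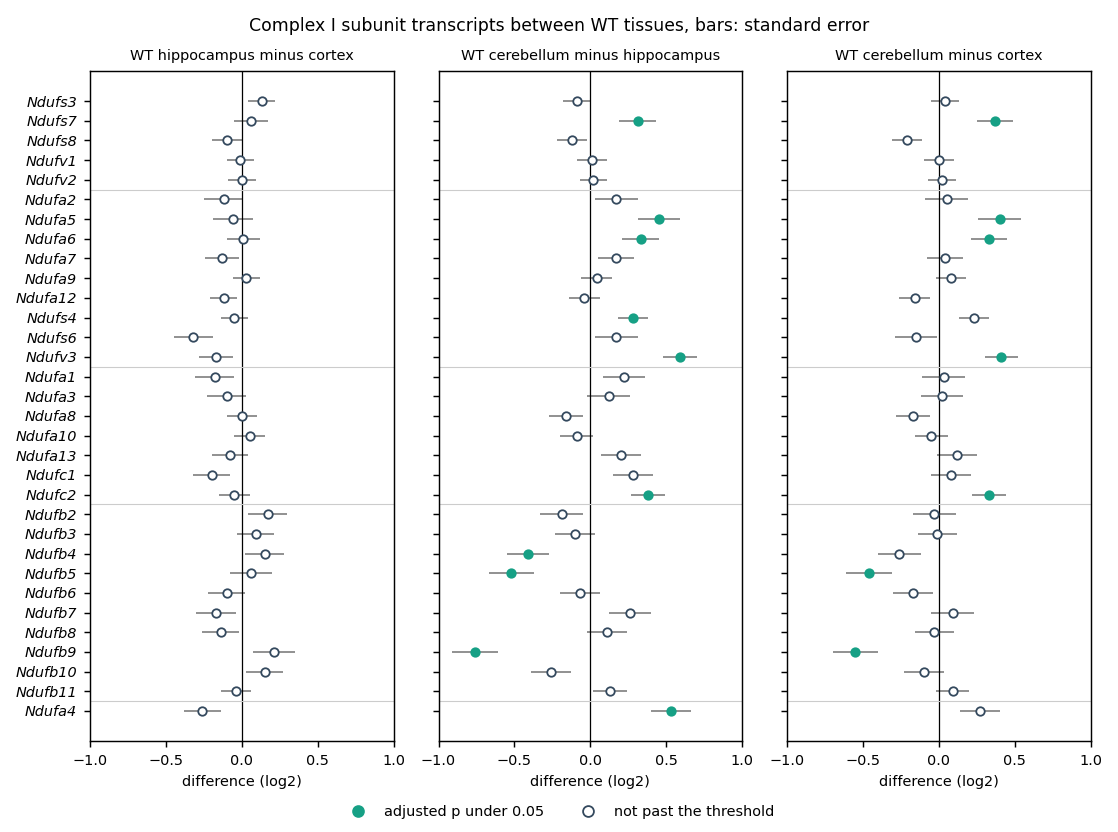
Differences between WT tissues on the log2 scale (horizontal axis) for the 32 subunit transcripts (rows), with standard errors as bars and members past an adjusted p under 0.05 as filled points. Hippocampus minus cortex has 0 filled points, and *Ndufb9*, *Ndufb5* and *Ndufv3* stand farthest from 0 in one or both cerebellar comparisons.

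Where a member had more than 1 detected probe, the probes mostly moved alike. In hippocampus, the second probe of *Ndufa5* differed by 0.45, that of *Ndufb6* by 0.41 and that of *Ndufc1* by 0.46, close to the probes used. For *Ndufs4*, whose loss gives a Leigh-like disease in mice, the probes differed by 0.25 to 0.35, of which that with 0.25 did not pass (limma, adjusted p over probes = 0.0898). The second *Ndufa8* probe differed by 0.22 (limma, adjusted p over probes = 0.096). The exceptions were dim probes: one *Ndufv3* probe differed by 0.07 in hippocampus and -0.1 in cerebellum, where the probe used and a further one differed by 0.49 and 0.61, and the second *Ndufb11* probe differed by 0.07 in cerebellum, against 0.5 for the one used. Sizes also varied by probe in cerebellum. The second probes of *Ndufa5* and *Ndufc1* differed there by 1.01 and 1.19, against 0.76 and 0.89 for those used, and that of *Ndufb6* by 0.71, against 0.87. The order of the largest cerebellar differences thus depends on the probe used.

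Other mitochondrial genes gave context. Over all genes tested, 7.19% were higher and 4.59% lower in KO hippocampus, and 20.2% and 16.6% in KO cerebellum. Among subunits of complexes II to V, 15 of 35 rose in KO hippocampus (median difference 0.27), 0 of 35 in cortex (0.03) and 24 of 34 in cerebellum (0.59), and 0 fell. *Cox7c*, of cytochrome c oxidase, rose by 0.45 in hippocampus and 0.84 in cerebellum, and *Uqcr11*, of complex III, by 0.33 in hippocampus and 1 in cerebellum. Of complex I assembly factors, 2 of 14 rose in hippocampus (median 0.07), 0 in cortex (-0.1) and 5 in cerebellum (0), and 0 fell. *Ndufaf5* was among them in hippocampus with 0.31 and in cerebellum with 0.41. Of 16 genes of the citric acid cycle and pyruvate dehydrogenase, 0 rose in any tissue, 1 fell in hippocampus, 0 in cortex and 3 in cerebellum. The shares that fell in hippocampus and cerebellum were near those of all genes. *Pdha1*, of the pyruvate dehydrogenase complex, fell by 0.3 in hippocampus and by 0.3 in cerebellum, where *Dlat* of the same complex fell by 0.41 and *Idh3a*, of isocitrate dehydrogenase, by 0.52. Of mitochondrial outer membrane and import genes 4 of 15 rose and 1 fell in hippocampus, and 6 of 15 rose and 1 fell in cerebellum. The share of these that fell was near that of all genes in hippocampus and below it in cerebellum. *Tomm7*, a small import subunit, rose by 0.43 in hippocampus and 1 in cerebellum, and the import receptor *Tomm70a* fell by 0.29 in hippocampus and by 0.3 in cerebellum.

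Complex I genes are short, and differences ran with gene length over all genes. The members' median length was 7744 bases (2256 to 100300), and 21 of 32 were shorter than the first quartile of the hippocampal genes, 9447.5 bases. Over all genes with a length, Spearman's rho of difference and length was -0.357 in hippocampus, 0.204 in cortex and -0.342 in cerebellum. Over the members alone it was -0.0909 in hippocampus, -0.293 in cortex and -0.237 in cerebellum. Genes are not independent replicates. The genes below the first quartile of length had a median difference of 0.1 in hippocampus and 0.15 in cerebellum, below the members' 0.34 and 0.72. After removal of the trend on length from each array, the members' median was 0.26 in hippocampus, 0.06 in cortex and 0.61 in cerebellum, with 12, 0 and 27 members higher. *Ndufv1* then fell in cerebellum, with -0.33 (limma, adjusted p = 0.0293).

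**Figure D5:**
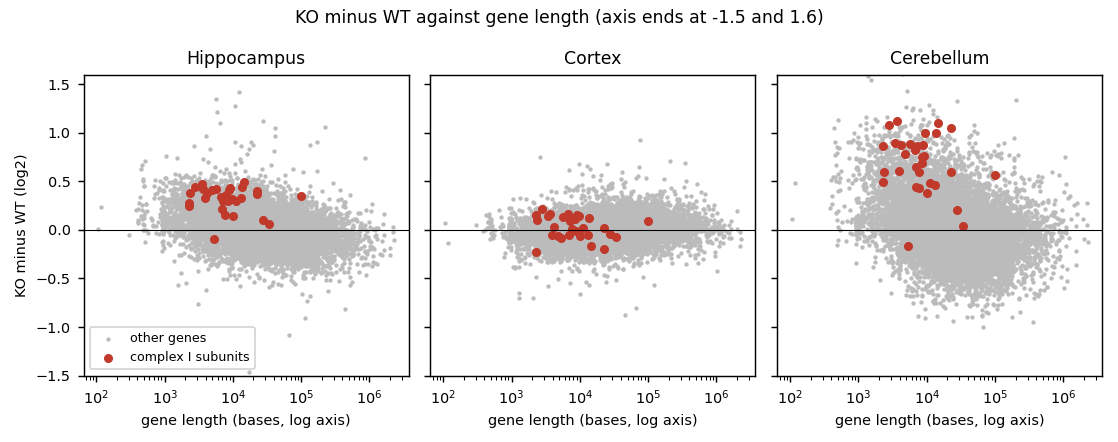
KO minus WT difference on the log2 scale against gene length in bases (log axis) for all genes tested (grey) and the complex I subunits (red) in each tissue, with the vertical axis ending at -1.5 and 1.6. Most members lie at the short end, above the bulk of genes of like length in cerebellum and near it in cortex.

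The promoters of the members were searched for motifs of factors linked to respiratory genes and for the E-box that Bhlhe40 binds. RefSeq promoters (GRCm38.p6, 250 bases before to 50 after the start) were found for 30 of 32 members and 27025 genes. Both strands were searched, and matches of different motifs did not overlap. The E-box CACGTG, which reads alike on both strands, was in promoters of 2 of 30 members, 6.67%, against 8.09% of all genes. Both are shown because *Ndufa7* rose in hippocampus and cerebellum and *Ndufv1* passed in neither. Capitals mark the E-box.
Ndufa7 (chr17:33824470-33824535, plus strand): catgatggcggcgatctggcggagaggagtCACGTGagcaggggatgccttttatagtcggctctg
Ndufv1 (chr19:4012889-4012954, minus strand): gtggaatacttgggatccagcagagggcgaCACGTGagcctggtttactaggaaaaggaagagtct

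The core of the NRF1 site, GCATGCGC, was in 2 of 30 member promoters (6.67%) and 3.05% of all. Both members that hold it, *Ndufa6*, a LYR-family subunit of the matrix arm, and *Ndufa8*, of the membrane arm, rose in hippocampus and cerebellum. Of all 32 members, 20 rose in hippocampus and 29 in cerebellum, so this does not set these members apart. Capitals mark the motif.
Ndufa6 (chr15:82354337-82354404, minus strand): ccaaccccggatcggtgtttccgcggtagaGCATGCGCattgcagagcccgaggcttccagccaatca
Ndufa8 (chr2:36049339-36049376, minus strand): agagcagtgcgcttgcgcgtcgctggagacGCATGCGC

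The YY1 motif AAGATGGC was in 7 of 30 member promoters (23.3%) and 3.19% of all, and each of the 7 matches lay in the 50 bases after the start, with 0 in the 250 bases before it. These letters contain ATG, and whether they are the start codon was not tested. Shown are *Ndufa3* and *Ndufc1*, among the members with the largest hippocampal differences, and *Ndufa9*, which passed in no tissue; the other 4 were *Ndufb8*, *Ndufs4*, *Ndufs6* and *Ndufs7*. Capitals mark the motif.
Ndufa3 (chr7:3617384-3617413, plus strand): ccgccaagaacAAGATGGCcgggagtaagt
Ndufc1 (chr3:51408915-51408944, minus strand): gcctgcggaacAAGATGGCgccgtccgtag
Ndufa9 (chr6:126849097-126849126, minus strand): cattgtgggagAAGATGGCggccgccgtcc

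The ETS motif CCGGAAGT was in 1 of 30 (3.33%, *Ndufs3*) and 4.31% of all, and the ERR motif TCAAGGTCA in 0 of 30 and 0.466% of all. A motif match is a description of the sequence and not a measured binding site.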

How the data were processed

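Labelled RNA of each tissue sample was run on 1 Illumina Ref8 v2 mouse BeadChip array. The authors extracted the intensity of 25697 probes in GenomeStudio 2011.1 and deposited it without background subtraction, with a detection p-value per probe and a Z score of the log signal. The recomputed Z scores differed from these deposited scores by at most 9.96e-05. Arrays have no read depth, and their number limits precision.

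Tests were run in limma 3.58.1 under R 4.3.3. Each array's log2 signals were turned into Z scores, which were scaled by 1.57, the average SD over arrays. A gene was tested in a tissue if a probe had a detection p under 0.05 in at least 3 arrays, and its probe with the highest mean level was used. KO and WT were compared within each tissue with lmFit and eBayes with a trend, with Benjamini-Hochberg adjustment over all genes tested. Contrasts between tissues used 6 groups with the mouse as a random block (consensus correlation 0.00178). Replicates were separate mice by their codes. Named members were, per tissue, the 5 with the largest difference past the threshold or lowest p, the core subunits in hippocampus, up to 5 interactions, the 3 largest WT differences and those against the median; *Bhlhe40* checked the labels. Other genes named as context were chosen after their values were seen. The members and lists were chosen with earlier results of these data known. Same-numbered KO and WT arrays were not pairs (11 pairs, r of residuals -0.375 to 0.245). Gene lengths came from the RefSeq gene table. The computation was tested on simulated data. Alternatives were quantile normalization, neqc with an offset of 16, the deposited Z scores, other detection filters, the mean of probes, blocks, an unmoderated test, choroid plexus and length corrections, the thresholds of the study's methods, and leaving out arrays.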

Additional observations from a re-analysis of the deposited data

Results flagged for a closer look

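Several subunits had 1 array far from the rest of its group. In KO hippocampus it was replicate 3, with the highest level of *Ndufa6* (12.67), *Ndufb10* (10.08), *Ndufb8* (13.45) and *Ndufc2* (12.88), the next arrays being at 12.43, 9.86, 13.25 and 12.63. In KO cortex it was replicate 1, with the highest level of *Ndufc2* (12.69), *Ndufs7* (12.61) and *Ndufv1* (13.41), the next being at 12.29, 12.04 and 13.26. In WT hippocampus, replicate 1 had the highest *Ndufs8* (11.7), next to 11.63. In all, counting the mean over the members, 8 of 165 groups of 4 arrays stood out, and chance alone gives about 1 in 20 of independent groups. These groups share arrays and are not independent. Most flags fell on KO hippocampus replicate 3 and KO cortex replicate 1, where the mean deviation over all members was 0.52 and 0.36.

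The KO effect differed between tissues for some members in the limma interaction contrasts. Hippocampus minus cortex was 0.59 for *Ndufa12* and 0.5 for *Ndufb11*. Hippocampus minus cerebellum was -0.7 for *Ndufa1*, -0.68 for *Ndufb3* and -0.65 for *Ndufa12*. Cortex minus cerebellum was -1.26 for *Ndufb5*, -1.24 for *Ndufa12*, -0.95 for *Ndufa1*, -0.88 for *Ndufb6* and -0.87 for *Ndufa7*.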

How the results depend on the processing

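The KO minus WT medians of the members kept their direction, except the cortical median, which lay between -0.05 and 0.1. The count of the 32 members higher in KO hippocampus was 20, and became 12 after length correction, 0 with the choroid plexus covariate, 0 in the unmoderated test, 24 with the replicate block and 10 to 25 with single arrays left out. In cerebellum (29 higher), the choroid plexus covariate gave 16, the replicate block 29, and leaving out arrays 26 to 29; length correction gave 1 member lower, against 0. Cortex had 0 in either direction under every alternative run. For the KO effect of hippocampus minus cortex (2 members), quantile normalization gave 5, the unmoderated test 0 and leaving out a mouse 0 to 13. For hippocampus minus cerebellum (3 members) these were 5, 0 and 0 to 6. Cortex minus cerebellum (27 members) ranged from 20 to 29 with mice left out. Without the mouse as a block (no replicate block) these counts were 2, 3 and 27. Between WT tissues, leaving out a mouse gave 4 to 10 members for cerebellum minus hippocampus (10 with all) and 3 to 8 for cerebellum minus cortex (7 with all). The YY1 matches were 7 in the whole window and 0 in the 250 bases before the start, and ETS 1 and 0. With 3 or 4 arrays a group, small differences could not be detected. The causes of these shifts were not tested.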

Other observations

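Markers of other cell types were counted beside the complex I genes. Over all genes tested in KO hippocampus, 7.19% were higher and 4.59% lower. In KO hippocampus, 0 of 8 astrocyte markers passed. There, 1 of 7 oligodendrocyte markers was higher (*Opalin*, 0.45), 2 of 7 neuronal markers were higher and 2 lower, 1 of 7 microglial markers was higher (*Aif1*, 0.3) and 1 lower (*Cx3cr1*, -0.33), and 2 of 6 endothelial markers were higher (*Flt1*, 0.28, and *Ly6c1*, 0.35). Of 2 red blood cell markers 0 passed.

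In KO cerebellum, 20.2% of all genes tested were higher and 16.6% lower. There, 2 of 8 astrocyte markers were higher (*S100b*, 0.93, and *Gfap*, 0.7). The 8 astrocyte differences ranged from -0.32 to 0.93, with 5 above 0. Higher as well were 1 of 7 oligodendrocyte markers (*Opalin*, 0.49), 3 of 7 microglial markers, all C1q chains, and 1 of 2 red blood cell markers (*Hba-a1*, 0.48). In these lists 0 were lower. Of 6 endothelial markers 2 were higher (*Ly6c1*, 0.59, and *Flt1*, 0.32) and 1 lower (*Slco1a4*, -0.3), and of 7 neuronal markers 3 were higher and 3 lower. In KO cortex 0 markers passed in these lists. Their part in the complex I result was not tested.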
